A study of Mus musculus with 4 samples.

Results

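Notch signalling passes between touching cells. A ligand of the Delta or Jagged family on one cell binds a Notch receptor on its neighbour, the receptor is cut, and its inner part moves to the nucleus, where it joins the DNA-binding protein RBPJ and switches on repressor genes of the Hes and Hey families. In skeletal muscle the pathway is known for keeping muscle stem cells undifferentiated, and cells that begin to differentiate are known to present ligand. Described here are 10 genes of this pathway, of 32285 gene identifiers in the data: the receptors Notch1, Notch2 and Notch3, the ligands Dll1, Jag1 and Jag2, the targets Hes1, Hey1 and Heyl, and the DNA-binding partner Rbpj. They were chosen by name, all 10 were present, and 44 other genes of the pathway were measured beside them.

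The cells were muscle stem cells of MyoD-KI mice, which carry a tdTomato reporter of MyoD. They had been grown for 5 days and sorted by flow cytometry for a high reporter signal, and cells with a low signal were not analysed here. Single cells were profiled with the 10x Genomics 3′ chemistry, in which each molecule carries a unique molecular identifier (UMI). The labels name 1 group with 4 replicates and do not give the age, the number of mice or a strain beyond the knock-in.

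The 4 replicates shared nearly all their cells. Any pair of libraries shared between 5946 and 5965 cell barcodes, at least 99.9% of the smaller library, and 5944 barcodes were in all 4. They were therefore treated as repeat libraries of 1 sample (n = 1), and no p-value was computed. Agreement between libraries shows technical repeatability alone. Whether a molecule was counted in more than 1 library was not tested, and sums over libraries may count it more than once. Unless stated otherwise, intervals are exact 95% intervals at the count of 1 library, covering counting error only. Library totals ran from 62627341 to 68898900 UMIs. Of the barcodes in all libraries, 5481 had at least 1000 genes and under 10% mitochondrial UMIs and were kept, with a median of 11049 UMIs, and 5197 of these were deep enough to be thinned to 5000 UMIs in each library. Of the myoblast markers, Myod1, whose reporter set the sort, stood at 507 CPM (UMIs of a gene per 1000000 UMIs). Des, the muscle intermediate filament desmin, stood at 1165 CPM. Pax7, a marker of muscle stem cells, had no UMI in 57.5% of the thinned cells, with the 4 libraries summed. Ptprc (0.027 CPM), Cdh5 (0.080 CPM), Sox10 (0.015 CPM), Pdgfra (0.499 CPM) and Dcn (0.327 CPM), which mark immune, endothelial, Schwann and fibroblast cells, were near 0. The fibroblast markers Col3a1 (110 CPM) and Pdpn (45.8 CPM) were not.

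Promoter sequences are shown for the genes whose levels moved in opposite directions along differentiation, Dll1 and Rbpj against Notch3. Of the 10 genes, 7 matched the RefSeq promoter table of GRCm38.p6. Hes1, Hey1 and Heyl were not among them. The stretches lie upstream of a RefSeq start site and are cut where an exon of the same strand begins. Dll1 and Rbpj have 2 windows each in the table, of which 1 is shown, and the start used for Rbpj lies inside the gene as annotated in GENCODE M21 (5:53466152-53657362). Capitals mark matches to TGGGAA, the core of the RBPJ site, or to CANNTG, the E-box bound by MyoD and myogenin, searched on both strands. CAGCTG is one form of CANNTG and was also counted on its own. The Dll1 stretch is chr17:15376933-15377182, minus strand. The Rbpj stretch is chr5:53590096-53590213, plus strand. The Notch3 stretch is chr17:32166891-32167140, minus strand.
Dll1: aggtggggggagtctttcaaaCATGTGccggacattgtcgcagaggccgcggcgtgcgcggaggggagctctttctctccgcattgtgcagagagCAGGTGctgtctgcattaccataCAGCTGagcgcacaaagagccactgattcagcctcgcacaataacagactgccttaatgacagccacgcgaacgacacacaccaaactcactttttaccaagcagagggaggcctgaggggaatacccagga
Rbpj: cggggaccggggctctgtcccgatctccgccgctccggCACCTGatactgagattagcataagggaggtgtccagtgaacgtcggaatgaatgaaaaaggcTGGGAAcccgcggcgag
Notch3: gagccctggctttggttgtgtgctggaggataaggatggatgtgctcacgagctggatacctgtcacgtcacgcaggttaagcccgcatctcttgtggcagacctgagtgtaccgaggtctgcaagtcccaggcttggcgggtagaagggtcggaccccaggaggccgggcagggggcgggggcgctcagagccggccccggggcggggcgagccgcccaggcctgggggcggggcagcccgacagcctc
The Dll1 stretch held 3 matches to CANNTG, of which 1 was CAGCTG, and the Rbpj stretch held 1 match to CANNTG and 1 to TGGGAA. The Notch3 stretch held neither. The Rbpj stretch is 118 bases of a window of 250, which in full held 2 matches to CANNTG and 2 to TGGGAA. The windows not shown held 1 CANNTG and no TGGGAA (Dll1), and 1 TGGGAA and no CANNTG (Rbpj). Among 32851 promoter windows of 250 bases, 66.2% held CANNTG, 13.0% held CAGCTG and 21.6% held TGGGAA, so such matches are common and describe the letters only.

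Every member was detected in all 4 libraries, and libraries repeated each other closely. Over all kept cells, Notch3 stood at 50.1, 48.9, 51.6 and 50.5 CPM in libraries 1 to 4, and Hes1 at 45.3, 46.3, 46.4 and 43.9 CPM. Dll1 stood at 19.6, 18.8, 19.3 and 18.8 CPM. Jag1, the sparsest member, stood at 2.67, 2.76, 2.85 and 2.60 CPM. Means of the others were 13.2 CPM for Notch1, 32.2 for Notch2, 13.9 for Heyl, 8.81 for Hey1, 18.3 for Jag2 and 129 for Rbpj. Levels are set side by side between groups of cells and not between genes, since the treatment of intronic reads is not given in the sources used here and long genes may gain from it.

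A single library caught these transcripts in only part of the cells that showed them elsewhere. After thinning to 5000 UMIs, a UMI of Notch3 was seen in 18.3% of cells (30.3% unthinned), of Hes1 in 15.1% (25.1% unthinned), of Dll1 in 8.70% (17.8% unthinned) and of Jag1 in 1.35% (3.01% unthinned). Of the cells with a Dll1 UMI in one library, 22.8% had one in another, against 48.7% for Notch3. Groups of cells are therefore compared by their summed UMIs.

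To ask which cells hold ligand and which hold receptors and targets, cells were grouped by their UMIs of Myog, the transcription factor that marks the onset of muscle differentiation, summed over the 4 thinned libraries (20000 UMIs a cell). There were 800 cells with 0 Myog UMIs, 1389 with 1 to 4, 548 with 5 to 19, 1409 with 20 to 79 and 1051 with 80 or more. Cells with 4 or fewer are called Myog-low and those with 20 or more Myog-high. Median depth before thinning was 11277 UMIs in Myog-low and 11345 UMIs in Myog-high cells.

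Notch3, Heyl, Hey1, Hes1 and Jag1 lay with the Myog-low cells, and Dll1 and Rbpj with the Myog-high cells. Myog-low cells made up 42.1% of cells and held 79% of the Notch3 UMIs, 78.8% of those of Heyl, 76.6% of Hey1, 78.2% of Hes1 and 82.7% of Jag1. They held 16.9% of the Dll1 UMIs. Myog-high cells, 47.3% of cells, held 69.7% of the Dll1 UMIs and 69.0% of those of Rbpj. Jag2 was spread as the cells were, with 43.4% of its UMIs in Myog-low and 45.4% in Myog-high cells. Notch1 and Notch2 lay between, with 55.1% and 56.0% of their UMIs in Myog-low cells.

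**Figure D1:**
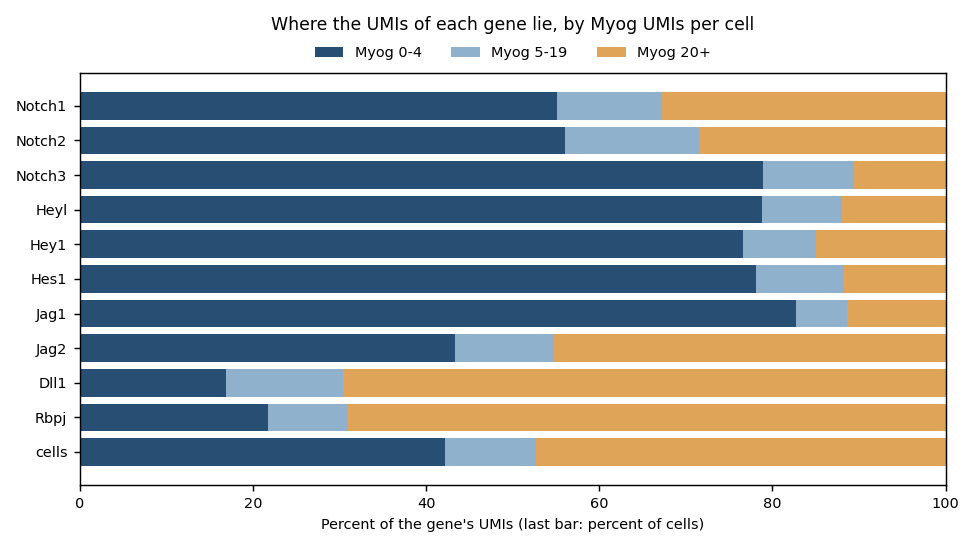
Percent of each gene's thinned UMIs (horizontal axis, mean of 4 libraries) found in cells with 0 to 4, 5 to 19 and 20 or more Myog UMIs, with the percent of cells as the last bar. Notch3, Hes1, Hey1, Heyl and Jag1 have 76.6% to 82.7% of their UMIs in the first group, which holds 42.1% of cells, while Dll1 and Rbpj have 69.7% and 69.0% in the last.

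Of the receptors, Notch3 had the steepest gradient. In cells without a Myog UMI it stood at 105, 96.5, 103 and 107 CPM in libraries 1 to 4, and in cells with 80 or more at 5.14, 5.71, 5.71 and 4.57 CPM. Libraries of the first group did not overlap those of the second, which shows technical repeatability alone. The share of all genes that separate likewise was not counted. The mean went from 103 CPM at 0 Myog UMIs and 94.3 CPM at 1 to 4, which did not differ beyond their intervals, to 51.8 CPM at 5 to 19, 16.3 CPM at 20 to 79 and 5.28 CPM at 80 or more. The share of cells with a Notch3 UMI went from 34.3% (95% interval 31.0% to 37.7%) to 2.35% (1.53% to 3.46%). No non-muscle cell type was at hand to measure free RNA, so a share near that of the lowest group may be background.

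Notch2 kept its level further along. It stood at 45.4 CPM with 0 Myog UMIs, 40.4 with 1 to 4 and 46.6 with 5 to 19, 3 values whose intervals overlap, and then at 25.8 and 10.0 CPM in the last 2 groups. Notch1 went from 18.8 CPM through 16.9, 15.5 and 10.6 to 7.66 CPM, with neighbouring intervals that overlap at every step. Both receptors were therefore still measured in cells where Notch3 was low.

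The 3 targets followed Notch3. Hes1, a repressor that acts directly downstream of Notch, stood at 81.5, 87.8, 89.8 and 87.5 CPM in cells without Myog and at 11.4, 9.32, 7.23 and 8.56 CPM in cells with 80 or more. Heyl, another such repressor, stood at 31.8, 32.5, 31.0 and 29.5 CPM against 2.47, 2.47, 0.571 and 1.33 CPM. Hey1, of the same family, stood at 21, 17.3, 22.0 and 18.8 CPM against 2.09, 3.43, 2.28 and 3.43 CPM. In all 3 the libraries of the low and the high end did not overlap, which shows technical repeatability alone. The share of all genes that separate in this way was not counted. The intermediate group, with 5 to 19 Myog UMIs, held 44.8 CPM of Hes1, 13.2 CPM of Heyl and 7.48 CPM of Hey1.

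The 3 ligands went 3 ways. Dll1, a Delta ligand, stood at 5.75, 6.75, 7.5 and 4 CPM in cells without Myog and at 28.4, 24, 24.9 and 27.2 CPM in cells with 80 or more, with no overlap. As for the targets, this shows technical repeatability alone, and the share of all genes that separate was not counted. The Dll1 mean of 6.0 CPM at 0 Myog UMIs and 8.60 CPM at 1 to 4 gave way to 24.4 CPM at 5 to 19, after which 29.6 and 26.1 CPM did not differ from it beyond their intervals. Jag1 went the opposite way, from 7.25, 5.00, 4.25 and 5.75 CPM to 0.381, 0.571, 0 and 0.761 CPM. It rests on few molecules, a mean of 22.3 UMIs a library in cells without Myog and 2.25 in those with 80 or more. Jag2 stood between 15.9 and 18.6 CPM in all 5 groups and its intervals all overlap.

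Rbpj, the DNA-binding partner through which all Notch receptors act, did not move with the targets. It stood at 56.3, 63.3, 60.0 and 55.8 CPM in cells without Myog and at 195, 201, 203 and 196 CPM in cells with 80 or more. The means in between were 68.4, 112 and 173 CPM, a gradient opposite to that of Notch3, Hes1, Heyl and Hey1. A UMI of Rbpj was seen in 24.9% of cells of the first group and 58.8% of the last.

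**Figure D2:**
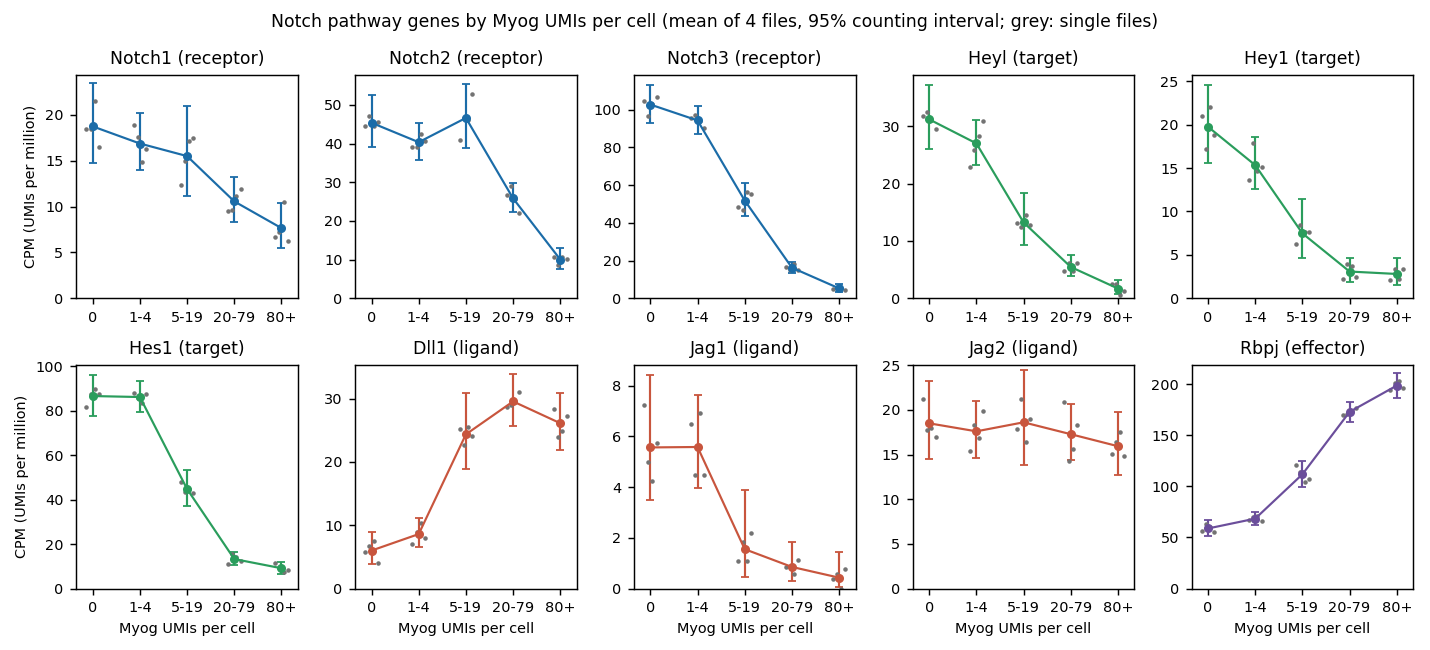
Level of each member (vertical axis, CPM from 0) by Myog UMIs per cell (horizontal axis): coloured points are means of 4 libraries with 95% counting intervals, grey points the single libraries. Notch3 goes from 103 to 5.28 CPM and Hes1 from 86.6 to 9.13 CPM, while Dll1 goes from 6.0 to 26.1 CPM, Rbpj from 58.8 to 199 CPM, and Jag2 stays between 15.9 and 18.6 CPM.

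A direct contrast set the 2460 Myog-high cells against the 2189 Myog-low cells. A gene counts as called when its level differs at least 2-fold (log2 ratio of CPM plus 1 of at least 1 in size), in the same direction in all 4 libraries, with at least 50 UMIs a library. Of the 10 members, 2 were called higher in Myog-high cells and 6 lower, beside 7.4% of all 11386 genes past the minimum called higher and 17.3% called lower. The median log2 ratio was -1.54 over the members and -0.26 over all genes.

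Among the lower genes, Notch3 stood at 11.6 against 97.4 CPM, a log2 ratio of -2.97 (-3.21 to -2.73), and Hes1 at 11.5 against 86.3 CPM, a ratio of -2.81 (-3.05 to -2.57). Heyl followed at -2.61 (-2.98 to -2.23), Hey1 at -2.19 (-2.59 to -1.76), Jag1 at -1.98 (-2.42 to -1.41) and Notch2 at -1.11 (-1.33 to -0.88). Dll1 was higher, at 28.1 against 7.65 CPM and a ratio of 1.76 (1.43 to 2.07), and so was Rbpj, at 184 against 64.9 CPM and 1.49 (1.37 to 1.61). Notch1, at -0.85 (-1.16 to -0.53), was not called. Jag2 was not called either, at 16.7 against 17.9 CPM and -0.10 (-0.37 to 0.18), an interval that leaves out changes of 2-fold. Under other scalings of the libraries Notch2 falls short of the 2-fold mark (-0.81 and -0.85) and Jag2 turns to 0.20 and 0.16, without being called.

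Cells with 5 or more summed UMIs of the proliferation genes Mki67 and Top2a, called cycling, made up 376 of the Myog-high and 1198 of the Myog-low cells. The contrast was therefore repeated among cells with at most 1 such UMI, called non-cycling. Between 1875 Myog-high and 715 Myog-low non-cycling cells, 9 members passed the minimum, of which 2 were called higher (8.04% of all genes) and 6 lower (15.8%). Notch3 stood at 8.29 against 109 CPM, a log2 ratio of -3.58 (-3.90 to -3.24), and Heyl at 2.85 against 34.8 CPM, a ratio of -3.22. Dll1 kept a ratio of 1.31 (0.80 to 1.77) and Rbpj one of 1.66. Notch1, at -1.12, was called here, but its call was lost without library 1 (-0.95) and under other scalings (up to -0.74), at 3000 UMIs or with groups set from 1 library. Jag1 was below the minimum, at 0.453 against 6.78 CPM.

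The onset of Myog was looked at in the 548 cells with 5 to 19 Myog UMIs, a contrast and finer groups chosen after the data were seen. Against Myog-low cells, Dll1 was called higher at 1.56 (1.10 to 2.0), and Heyl (-1.05), Hey1 (-1.09) and Jag1 (-1.38) lower, beside 1.72% of all genes called higher and 1.96% lower. Notch3 (-0.90), Hes1 (-0.93) and Rbpj (0.78) differed by less than 2-fold. At a thinning depth of 3000 UMIs, however, Notch3 (-1.33) and Hes1 (-1.23) passed 2-fold and Rbpj gave 0.99. Dll1 was called under every alternative run, while the 3 lower calls were all lost with full counts (Heyl -0.82, Hey1 -0.87, Jag1 -0.91) or with groups set from 1 library. In finer groups Dll1 stood at 6.29 CPM with 1 Myog UMI, 10.9 CPM with 2 to 4 and 22.8 CPM with 5 to 9, near its highest level, while Notch3 still stood at 105, 83.4 and 65.9 CPM. Notch3 then went through 38.4 CPM at 10 to 19 and 26.9 CPM at 20 to 39 Myog UMIs to 11.5 CPM at 40 to 79. The largest ratio between neighbouring groups lay at the step to 5 to 9 Myog UMIs for Dll1 and at the step to 40 to 79 for Notch3. These groups differ in width, and whether any step exceeds the others, or comes before another gene's step, was not tested. Myod1, whose reporter set the sort, also differed along these groups, from 296 CPM at 0 Myog UMIs to 631 CPM at 5 to 9, and its part in the result was not tested.

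**Figure D3:**
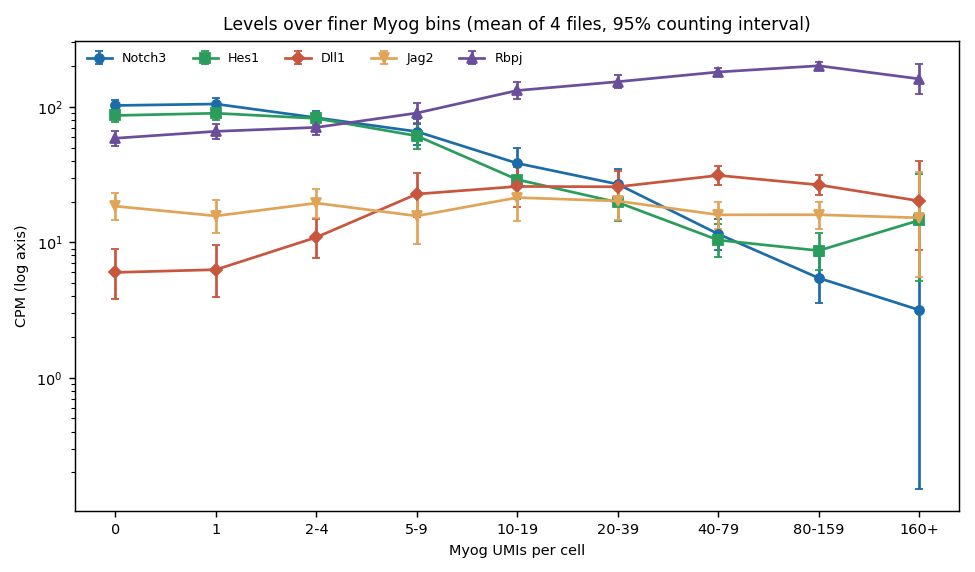
Levels of Notch3, Hes1, Dll1, Jag2 and Rbpj (vertical axis, CPM on a log scale) in 9 groups of cells by Myog UMIs (horizontal axis), means of 4 libraries with 95% counting intervals. Dll1 reaches 22.8 CPM at 5 to 9 Myog UMIs, where Notch3 is at 65.9 CPM, and the last group holds 79 cells.

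Dll1 and Notch3 UMIs met in the same cell less often over all cells. Within the groups by Myog, the interval of this difference included 0 when libraries were read singly. Over all thinned cells, a Dll1 UMI was seen in 5.22% of cells with a Notch3 UMI and 9.48% of cells without, a difference of -4.26 percentage points (-5.86 to -2.42). By Heyl the difference was -5.06 points (-7.12 to -2.16) and by Hes1 -4.81 points (-6.45 to -2.91), and with full counts these were -7.63 and -8.37 points. Within Myog-low cells the difference by Notch3 was -1.03 points (-2.59 to 0.74), within cells of 5 to 19 Myog UMIs -0.30 points (-6.65 to 7.56), and within Myog-high cells 1.24 points (-4.37 to 8.82). Jag1 behaved otherwise: it was seen in 3.18% of cells with Notch3 and 0.942% of those without, and in 4.03% against 1.97% within Myog-low cells, a difference of 2.06 points (0.50 to 3.89). Few cells held Jag1. Both genes leaned higher with Pax7 among Myog-low cells, as given below, and these shares were not split by Pax7. Jag2 differed by -0.06 points (-1.95 to 2.02) with Notch3.

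Notch3 and the targets met in the same cells more often within the Myog-low group. These genes were also higher with Pax7 among those cells, as given below, and the shares were not split by Pax7. Within Myog-low cells a Heyl UMI was seen in 17.8% of cells with Notch3 and 7.39% of cells without, a difference of 10.4 points (7.32 to 13.7). Hes1 differed by 5.87 points (1.79 to 9.99) and Hey1 by 4.95 points (2.40 to 7.72). A UMI in any of the 4 libraries gives a fuller count, made after the data were seen. By it, 77 of 548 cells with 5 to 19 Myog UMIs (14.1%, 11.3% to 17.2%) held both Dll1 and Notch3, against 6.08% of Myog-low and 5.77% of Myog-high cells. In Myog-low cells, 177 of 240 with Dll1 (73.8%, 67.7% to 79.2%) held Notch3, Heyl, Hey1 or Hes1. Without Dll1 it was 1614 of 1949 (82.8%, 81.1% to 84.5%), in a group whose cells still differ in Myog. For Notch3 alone these shares were 55.4% (48.9% to 61.8%) and 63.5% (61.3% to 65.6%). In Myog-high cells the shares holding any of the 4 genes were 29.8% (26.7% to 32.9%) and 26.9% (24.7% to 29.1%). Dll1 without Notch3, Heyl, Hey1 or Hes1 was held by 24.8% of Myog-high and 2.88% of Myog-low cells. Jag1 and Dll1 were held together by 25 of 5197 cells.

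Pax7, the transcription factor of muscle stem cells, was then used to split the Myog-low cells into 1628 with at least 1 Pax7 UMI and 561 with none. Notch3 and Heyl were higher in the cells with Pax7, and no member was called lower. Notch3 stood at 113 against 52.1 CPM, a log2 ratio of 1.10 (0.85 to 1.36), and Heyl at 34.2 against 12.0 CPM, a ratio of 1.43 (0.95 to 1.95). These 2 of 10 members were called, beside 0.792% of all 10107 genes called higher and 0.0198% called lower. Both calls were lost at a thinning depth of 3000 UMIs or with groups set from 1 library, where Notch3 gave 0.93 and 0.70 and Heyl 0.91 and 0.94. Notch3 alone fell short of 2-fold under either other scaling, at 0.97, and without the cells poor in Malat1, at 0.96.

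The remaining receptors and targets leaned the same way by less than 2-fold: Notch1 0.74 (0.22 to 1.28), Notch2 0.58 (0.25 to 0.92), Hey1 0.61 (0.09 to 1.14) and Hes1 0.49 (0.26 to 0.73). Jag1 gave 0.99 (0.03 to 1.74). Dll1, at 6.97 against 9.63 CPM and -0.39 (-1.03 to 0.22), Jag2, at 0.06 (-0.40 to 0.53), and Rbpj, at 0.13 (-0.12 to 0.38), have intervals that include 0. No difference in Dll1, Jag2 or Rbpj by Pax7 was thus detectable within these intervals.

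The Myog-low cells were then divided more finely by Pax7, in 4 groups drawn after the data were seen. Notch3 stood at 46.0, 53.1, 52.0 and 57.4 CPM in Myog-low cells without Pax7 and at 227, 203, 231 and 219 CPM in the 210 cells with 6 or more Pax7 UMIs. Heyl stood at 11.4, 13.5, 11.8 and 11.4 CPM against 70.5, 66.7, 90.5 and 78.1 CPM. Neither gene's libraries overlap, though these hold the same cells and the share of all genes that separate was not counted. The groups between them lay in order, at 78.3 and 129 CPM for Notch3 and 23.4 and 35.7 CPM for Heyl. Over the same 4 groups Hes1 went from 66.1 to 125 CPM, Hey1 from 11.9 to 36.9 CPM, Notch1 from 11.4 to 32.1 CPM, Notch2 from 30.6 to 60.5 CPM and Jag1 from 3.03 to 12.9 CPM. Jag2 stayed between 17.4 and 18.4 CPM and Rbpj between 60.6 and 67.0 CPM. Dll1 stood at 9.63, 7.86, 6.36 and 4.76 CPM, with intervals that overlap. The pericyte markers Pdgfrb (3.83, 9.93, 13.4 and 21.4 CPM) and Rgs5 (3.83, 12.5, 18.6 and 18.1 CPM) were higher in the groups with Pax7, and Myod1 went from 414 to 213 CPM, and their part in the result was not tested. Median depth was 11586 UMIs in the first of these groups and 9776 UMIs in the last before thinning to equal depth.

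**Figure D4:**
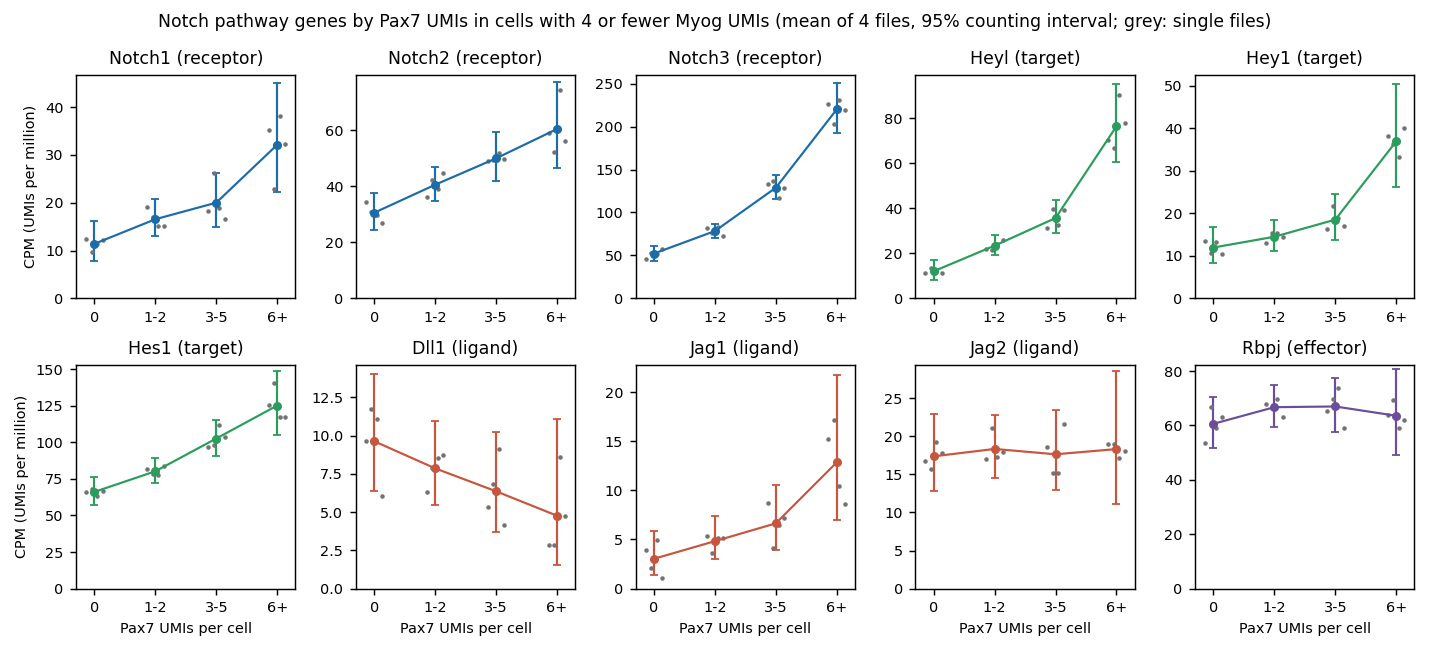
Level of each member (vertical axis, CPM from 0) in Myog-low cells by Pax7 UMIs per cell (horizontal axis), means of 4 libraries with 95% counting intervals and single libraries in grey. Notch3 goes from 52.1 to 220 CPM and Heyl from 12.0 to 76.4 CPM, while Jag2 and Rbpj stay within 17.4 to 18.4 and 60.6 to 67.0 CPM.

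The Pax7 split was then made separately in non-cycling and cycling cells. Among 715 Myog-low non-cycling cells, Notch3 (1.18), Heyl (1.60) and Hey1 (1.17) were called higher with Pax7, 3 of the 8 members past the minimum, beside 2.36% of all genes. Among cycling Myog-low cells, a contrast added after the data were seen, Notch3 (1.07) and Heyl (1.26) were called, beside 0.55% of all genes. Dll1 was below the minimum in both. In non-cycling cells 1 of the 3 calls was left at a thinning depth of 3000 UMIs, where Heyl gave 0.86 and Hey1 0.29, and 1 with groups set from 1 library, where Notch3 gave 0.64. Hey1 gave 0.86 there without library 2. In cycling cells neither call was left at 3000 UMIs or with groups from 1 library, with Notch3 down to 0.71 and Heyl to 0.79, and 1 was left under either other scaling, with another thinning seed or without library 1.

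Markers of pericytes, mural cells that are known to carry Notch3 and Heyl, were read beside these results. Over the 5 Myog groups the summed level of the 7 markers ran from 26.6 to 42.4 CPM without a steady direction: Rgs5 (-2.65), Pdgfrb (-2.82) and Cspg4 (-1.10) were called lower in Myog-high cells and Abcc9 (3.69) higher. In the Pax7 contrast, 2 of 7 markers, Rgs5 (1.75) and Pdgfrb (1.5), were called higher with Pax7, and the sum ran from 28.8 CPM without to 62.5 CPM with Pax7 in non-cycling and from 27.3 to 39.4 CPM in cycling Myog-low cells. Of the same 7 markers, Kcnj8 (0.030 CPM) and Myh11 (0.302 CPM) were near 0. The 5 fibroblast markers summed to 230 CPM without Myog and 80.5 CPM at 80 or more, mostly Col3a1, with Lum at 0 in the groups by Myog. The part of either list in the results was not tested.

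No member was called by division among Myog-low cells. Between 1198 cycling and 715 non-cycling Myog-low cells, none of the 10 members was called, beside 6.12% of all 9830 genes called higher and 1.87% lower, and the members' log2 ratios lay between -0.46 and 0.30. Notch3 stood at 96.6 against 109 CPM, a ratio of -0.17 (-0.36 to 0.01), and Hes1 at 92.3 against 77.7 CPM, a ratio of 0.25 (0.04 to 0.46). Dll1 gave -0.46 (-1.09 to 0.13). Over all cells, Notch3 went from 37.0 CPM in non-cycling cells to 102 CPM in those with 20 or more Mki67 and Top2a UMIs, and the Myog-low cells alone did not show this gradient.

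Among Myog-high cells Notch2 and Notch3 were called higher in the cycling cells, in calls that some alternatives did not keep. In this contrast, added after the data were seen, 376 cycling cells were set against 1875 non-cycling cells. Notch2 stood at 38.3 against 14.4 CPM, a log2 ratio of 1.36 (0.94 to 1.76), and Notch3 at 25.7 against 8.29 CPM, a ratio of 1.51 (1.01 to 2.02). These 2 of 7 members past the minimum were called higher, beside 8.41% of all genes, and none lower, beside 4.03%. Hes1 (0.98) and Notch1 (0.93) were just short of 2-fold, Dll1 gave 0.49 (0.11 to 0.89) and Rbpj 0.04 (-0.13 to 0.20). Dll1 stood at 36.6 CPM in the cycling and 25.5 CPM in the non-cycling Myog-high cells. Their median depth was 13919 UMIs against 11125 UMIs, and doublets were not called. Notch2 and Notch3 also went down with Myog among Myog-high cells, and the cycling and non-cycling cells were not matched for Myog. The part of depth, doublets or Myog in the result was not tested. The count of members called was 1 at a thinning depth of 3000 UMIs, where Notch2 gave 0.999, and 0 with Myog-high limited to 80 or more Myog UMIs, where Notch3 gave 0.85.

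**Figure D5:**
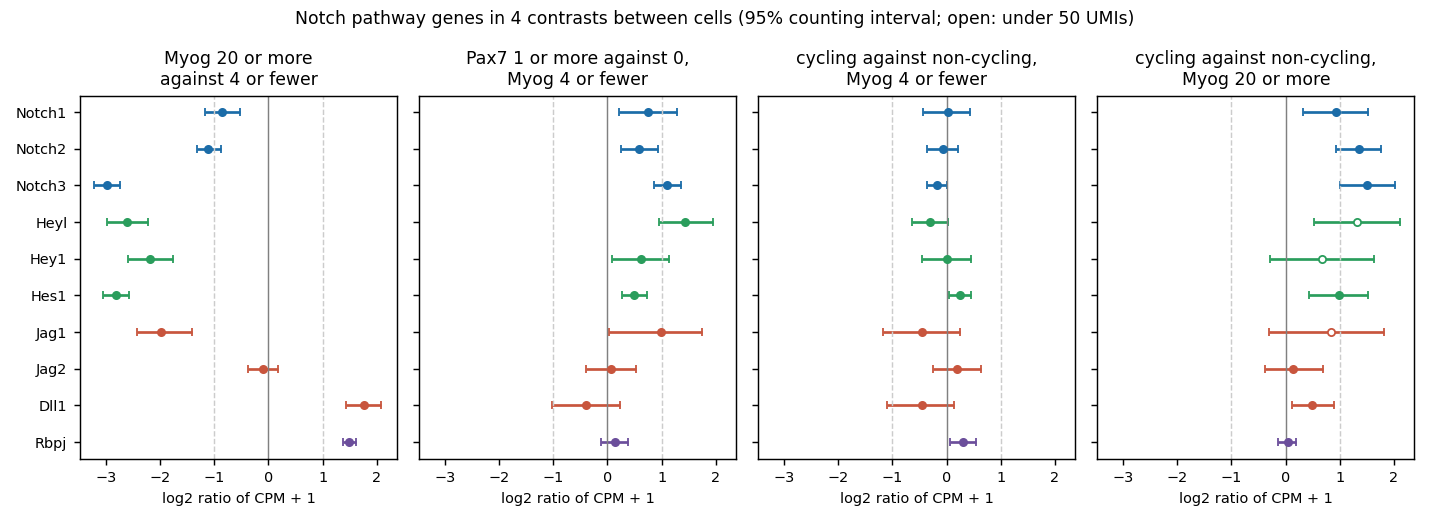
Log2 ratio of CPM plus 1 (horizontal axis) of each member in 4 contrasts between cells, with 95% counting intervals, open points where a member had under 50 UMIs a library, and dashed lines at the 2-fold marks. Dll1 and Rbpj lie to the right and Notch3, Hes1, Heyl, Hey1, Jag1 and Notch2 to the left in the Myog contrast, no member passes the marks between cycling and non-cycling Myog-low cells, and Notch2 and Notch3 pass them in Myog-high cells.

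Other genes of the pathway were measured in the same contrasts. Of the 44 other genes, 33 passed the minimum in the Myog contrast, of which 2 were called higher and 3 lower, beside 7.4% and 17.3% of all genes, with a median log2 ratio of -0.26 against -0.26 for all genes. The higher ones were Neurl1a, an E3 ligase that acts on Notch ligands, at 92.2 against 12.0 CPM and 2.85 (2.60 to 3.09), and Hes6, a Hes family member known to oppose Hes1, at 1220 against 369 CPM and 1.72 (1.67 to 1.77). The lower ones were the coactivators Maml2 (-1.18) and Kat2b (-1.48) and the Deltex gene Dtx4 (-1.90). The other 28, among them Adam10 (-0.89), a receptor-cutting enzyme, Mib1 (0.15), the main ligase for ligand uptake, and the inhibitor Numb (0.03), lay between -0.89 and 0.60.

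Dtx4, Kat2b and Lfng were also called in other contrasts. Dtx4 was called higher with Pax7 in Myog-low cells, at 12.5 against 3.57 CPM and 1.73 (0.78 to 2.36), and Kat2b was called in their non-cycling part, at 1.13. Lfng, a glycosyltransferase that tunes which ligands a receptor answers, was highest at intermediate Myog, with 10.6 CPM at 0 Myog UMIs, 19.8 CPM at 5 to 19 and 2.85 CPM at 80 or more. It was called lower with Myog in non-cycling cells (-1.0), together with the γ-secretase gene Aph1b (-1.10), and higher in cycling Myog-high cells (1.38). Below the minimum in the Myog contrast were Notch4, Dll3, Dll4, Dlk1, Hes5, Hes7, Hey2, Nrarp, Mfng, Neurl1b and Dtx1. Hes5 had no UMI in any kept cell, which allows a level of up to 0.056 CPM (the 95% Poisson bound).

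The genes whose levels ran most closely with a member were sought over 26 groups of cells crossed by Myog, Pax7 and division, among 8746 genes. The Pearson r given is a description across groups that share libraries. Close to Notch3 were Frk (0.962), Asap1 (0.960), Prrx1 (0.958) and Zfhx4 (0.958), and closest to Heyl were Tshz2 (0.925), Sox5 (0.922), Myo9b (0.915), Nrp1 (0.899) and Pvt1 (0.891). Closest to Dll1 were Tmem9 (0.960), Rbm24 (0.951), Chil1 (0.947), Gm28653 (0.942) and Ank1 (0.939). Jag2 had no close partner, the nearest being Tmco1 at 0.704. Among the members, Notch3 ran with Hes1 at 0.893, Hey1 at 0.867 and Heyl at 0.866, and against Dll1 at -0.71, while Dll1 ran with Rbpj at 0.824.

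Counting could mix overlapping genes, since a strand setting is not given in the sources used here. In GENCODE M21 (GRCm38), Notch3 lies at 17:32120820-32166852 on the minus strand and overlaps Gm17276 (17:32113411-32141843) on the other strand, which stood at 7.19 CPM without Myog and 0.633 CPM at 160 or more Myog UMIs. Reads of the pair cannot be told apart without strand. Notch1 (2:26457903-26516663, minus strand) likewise overlaps 0610009E02Rik, at 2.88 CPM in cells without Myog. The other members lie at 3:98013527-98150361 (Notch2, plus strand), 17:15367354-15376872 (Dll1, minus strand), 2:137081456-137116644 (Jag1, minus strand), 12:112907819-112929776 (Jag2, minus strand), 16:30064384-30067796 (Hes1, plus strand), 3:8663359-8667256 (Hey1, minus strand), 4:123233556-123249875 (Heyl, plus strand) and 5:53466152-53657362 (Rbpj, plus strand). Of these, Dll1 and Rbpj also overlap genes annotated on the other strand, and Notch2 and Jag2 overlap genes on their own strand. The part of these overlaps in the levels was not tested. The values are sums over each gene and do not resolve exons.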

How the data were processed

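For 4 labelled replicates the authors deposited unnormalized UMI counts of each gene in each barcode. Per the file headers, Cell Ranger 7.1.0 wrote them. The submitters' processing notes name Cell Ranger 3.1.0 and the builds mm10 and GRCm39; the annotation, barcode calling, intron treatment and strand setting are not given in the sources used here. Identifiers were matched to GENCODE M21 on GRCm38, which may not be the authors' build. Kept cells were present in all 4 libraries and showed 1000 or more genes and less than 10% of UMIs from mitochondrial genes, averaged over libraries. Each was thinned to 5000 UMIs a library, leaving out 284 shallower cells. Cells were grouped by summed thinned UMIs of Myog, Pax7 and Mki67 plus Top2a. Counts were summed per group and library and averaged as CPM, and log2 ratios were taken on CPM plus 1. A gene entered with at least 50 UMIs a library over both sides. Intervals were exact Poisson, Clopper-Pearson or conditional binomial at 95%. Those of differences between shares joined the Clopper-Pearson limits of both shares and are approximate. Shares by a UMI in any library have intervals at the count of cells over all 4 libraries. Doublets were not called. All 10 members are named, and of the other pathway genes those called or below the minimum, with a few others for their roles. Some genes that this rule would name are not reported here. The members, lists and groups were chosen with earlier results of these data known. Only the Myog contrast was tried on simulated data, with 4-fold changes and counts drawn independently for each library. The other contrasts and smaller changes were not tried. Python 3.11.15, numpy 2.4.6, scipy 1.17.1, pandas 2.3.3 and matplotlib 3.10.9 were used. Alternatives are in the closing section.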

Additional observations from a re-analysis of the deposited data

Results flagged for a closer look

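Of 140 sets of 4 library values examined, 2 had a library far from the others, where chance flags about 5%. The Notch1 log2 ratio with Pax7 in Myog-low non-cycling cells was 1.65 in one library and 0.52 in the nearest other, a gap of 0.886 of the whole range. The 4 libraries hold the same cells, and Notch1 was not called there. The Notch3 log2 ratio with Pax7 in Myog-low cycling cells was 1.30 in library 1 and 1.01 in the nearest other, a gap of 0.945 of the range.

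In 3 members every library gave a lower level in cycling than in non-cycling cells when Myog was low and a higher level when Myog was high. The share of all genes that do so was not counted. Their median log2 ratio was 0.0001 in Myog-low and 0.15 in Myog-high cells. Notch3 gave log2 ratios of -0.17 and 1.51, Heyl -0.31 and 1.32, and Dll1 -0.46 and 0.49. The difference between the contrasts was not tested, since the libraries are 1 sample, and Heyl was below the count minimum in Myog-high cells. With groups set from 1 library, the values in Myog-low cells turn to 0.07 for Notch3 and 0.04 for Heyl. With Myog-high cells limited to 80 or more Myog UMIs, Heyl turns to -1.37 and Hes1 to -2.02. Both values rest on few UMIs, and neither gene was called lower there.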

How the results depend on the processing

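No paired analysis was possible because the labels give 1 group and the 4 libraries hold the same cells, so no test was run. Among the main values, 279 recomputations stayed within their margin and 23 moved; among single genes 1264 stayed and 60 moved, and none of the called values changed sign. No count of members called in the Myog contrast moved by more than 1.5 times under the alternatives run. In the Pax7 contrast of Myog-low cells, the count of members called higher, 2 as reported, was 0 at 3000 UMIs, 0 with groups from 1 library, and 1 with TMM factors, with ratios centred on their median, or without the 867 cells poor in Malat1. In non-cycling cells it was 1 at 3000 UMIs and 1 with groups from 1 library, against 3. In cycling Myog-low cells, 2 as reported, it was 0 at 3000 UMIs or with groups from 1 library, and 1 in cells without Myog, with either scaling or with another thinning seed. Of the 3 members lower at 5 to 19 Myog UMIs, 0 were left with full counts or with groups from 1 library. In cycling Myog-high cells, 2 as reported, it was 1 at 3000 UMIs, 4 with full counts or a pseudocount of 0.1, and 0 at 80 or more Myog UMIs. Jag1 by Notch3 gave 4.4 points at full counts. Notch3 without Myog stood at 91.8 CPM at full counts and 117 CPM without cells poor in Malat1. Leaving out each library gave 5 to 6 members lower in the Myog contrast of non-cycling cells, 2 to 3 higher with Pax7 in Myog-low non-cycling and 1 to 2 in Myog-low cycling cells, and 2 to 3 higher in cycling Myog-high cells.

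Scaling moved the all-gene background. CPM called 843 genes higher and 1972 lower in the Myog contrast, 29.9% of calls higher, against 47.1% with TMM and 44.3% with median centring. In non-cycling cells 33.8% became 56.3% and 46.9%. With Pax7 in non-cycling cells 86.2% became 65.0%, and in cycling Myog-high cells 67.6% became 48.9% and 55.9%. The genes called higher with Pax7 in Myog-low cells numbered 80, and 35 at 3000 UMIs, 19 with groups from 1 library, 49 with either scaling, 47 without cells poor in Malat1 and 123 with no minimum. Those in the cycling Myog-low cells numbered 48, and 7 at 3000 UMIs, 6 with groups from 1 library, 30 with median centring and 179 with no minimum. At 5 to 19 Myog UMIs 181 were higher and 207 lower, against 281 higher at 3000 UMIs and 135 lower with groups from 1 library. The medians of all genes were -0.26 with Myog, 0.14 with Pax7 and 0.15 with division in Myog-high cells. Jag1 and Heyl are limited by depth in Myog-high cells.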
